A study of Rattus norvegicus with 6 samples.

Results

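The genes described here are the YAP and TEAD branch of the Hippo pathway in rat H9C2 cells, a myoblast line from embryonic heart. They were chosen by name: the coactivator genes Yap1 and Wwtr1, the TEAD factor genes Tead1 and Tead4, the kinase gene Lats2, the scaffold gene Amotl2, and Ankrd1, Axl, Ccn2 (also called Ctgf) and Ccn1 (also called Cyr61), which are widely used as readouts of the pathway. All 10 names were found once each among the 32623 genes of the deposited RNA sequencing table, and all 10 were among the 12229 genes that passed the filter on low values (at least 1 FPKM, a count scaled to transcript length and library size, in at least 2 libraries). Each of 3 groups held 2 libraries from cells cultured in medium with 1 g/L glucose. The Ctrl group was untreated, the HG group received 33 mM glucose for 8 h, and the siFGFR1+HG group received an siRNA against FGFR1 and then 33 mM glucose for 8 h. The labels name no osmotic control and no control siRNA, so glucose cannot be told apart from osmolarity, nor the siRNA from the transfection. Nothing in the labels ties the libraries of one group to separate cultures. The p-values therefore measure the spread between these libraries, which may be technical.

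Counts per library summed to between 46960084 and 75021470. Fgfr1 itself had 0 to 4 counts in every library, so the knockdown could not be checked, and directions refer to the libraries as labelled. Of the myoblast genes, Cdh15 (116 to 139 FPKM), Myod1 (62.9 to 67.4), Myog (16.1 to 27.4) and Des (4.25 to 7.80) were expressed. Myf6 and Pax7 had at most 9 and 3 counts in any library. Myf5 and the defining markers Ptprc of leukocytes, Cdh5 of endothelium and Epcam of epithelium had a count of 0 in all 6 libraries. In siFGFR1+HG against Ctrl, Des (log2 fold change -0.77), Myog (-0.68) and Cdh15 (-0.13) were lower, at adjusted p from 0.00145 to 0.0243 by edgeR. Myod1 was not called there (-0.05). In HG against Ctrl, Des (-0.51, adjusted p = 0.0324 by edgeR) and Cdh15 (-0.26, 0.00477) were lower, while Myog (-0.24) and Myod1 (0.00) were not called. From HG to siFGFR1+HG, Cdh15 rose (0.13, adjusted p = 0.0180 by edgeR) and Myog fell (-0.44, 0.00527). Des (-0.27) and Myod1 (-0.06) were not called in that step. The 3 mesenchymal markers (Vim, Col1a1 and Pdgfrb) summed to 5155 to 5244 FPKM in Ctrl, 4638 to 4729 in HG and 5723 to 5814 in siFGFR1+HG. The 7 myoblast markers summed to 235 to 240.2, 211 to 212 and 210.1 to 212 FPKM in that order. The 5 epithelial markers, nearly all of it Krt8, summed to 25.7 to 26.1, 19.7 to 21.3 and 18.3 to 19.6 FPKM. The 5 macrophage markers summed to at most 1.69 FPKM and 4 endothelial markers to at most 0.311 FPKM in any library. In bulk RNA, fewer cells of a type and less RNA per cell cannot be told apart.

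In the Hippo pathway, the MST kinases activate the LATS kinases, and LATS kinases phosphorylate YAP (Yap1) and TAZ (Wwtr1), which then stay in the cytoplasm or are degraded. Unphosphorylated YAP and TAZ enter the nucleus and bind TEAD factors, which carry them to DNA. Lats2 and Amotl2, whose products restrain YAP, are also transcribed in response to it and thus form a negative feedback. Control of YAP acts largely on the protein, which RNA levels do not show. In muscle, TEAD factors bind the MCAT element of many muscle genes, and Ankrd1 encodes a nuclear and sarcomeric ankyrin repeat protein known as a stress-responsive gene of heart muscle.

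The 250 bases before the transcription starts of Ccn2 and Ccn1 are shown because these related target genes both hold a TEAD motif upstream of a TATA box, and because Ccn1 rose in siFGFR1+HG against HG while Ccn2 was not called there. The sequences are from RefSeq (build GRCr8), at chr1:22624615-22624864 for Ccn2 and chr2:237225690-237225939 for Ccn1, both on the minus strand and written 5′ to 3′. Capitals mark matches to the TEAD motif GGAATG, or its reverse complement CATTCC, and to the TATA box TATAAA.
Ccn2: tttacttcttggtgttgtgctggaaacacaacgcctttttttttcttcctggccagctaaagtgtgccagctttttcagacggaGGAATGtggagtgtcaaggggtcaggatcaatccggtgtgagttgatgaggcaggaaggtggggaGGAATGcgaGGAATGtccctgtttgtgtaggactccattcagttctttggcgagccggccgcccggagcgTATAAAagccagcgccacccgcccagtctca
Ccn1: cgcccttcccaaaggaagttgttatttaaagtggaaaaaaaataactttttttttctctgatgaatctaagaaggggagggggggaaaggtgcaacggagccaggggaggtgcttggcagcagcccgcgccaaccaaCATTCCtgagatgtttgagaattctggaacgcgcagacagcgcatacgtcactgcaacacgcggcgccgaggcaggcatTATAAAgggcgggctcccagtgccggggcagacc
Ccn2 held 3 TEAD motifs, which began 166, 101 and 92 bases before the start, and Ccn1 held 1 on the other strand, which began 113 bases before it. A TATA box began 31 bases before the start of Ccn2 and 34 bases before that of Ccn1, and no motifs overlapped. Promoter sequences were found for 6 of the 10 members. In the same window Yap1 and Amotl2 held 1 TEAD motif each, at 116 and 76 bases before the start, while Wwtr1 and Axl held no match to it. Of 33469 rat promoters of this length, 12.1% held a TEAD motif on either strand and 8.06% a TATA box on the gene's own strand. The AP-1 motif TGANTCA, found in 6.34% of promoters, and the CArG box of serum response factor, found in 1.5%, had no match in the 6 members, on either strand. These matches describe the letters and do not show binding.

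Per length of transcript, Ankrd1 was the most abundant member, at 546 to 652 FPKM over the 6 libraries, and ranked 128 of 12229 tested genes by its mean. Ccn2 followed at 401 to 470.0 FPKM, then Ccn1 at 119 to 172, Axl at 89.3 to 100.4, Amotl2 at 66.4 to 93.7 and Yap1 at 61.9 to 68.3 FPKM. Lats2 (30.7 to 36.9 FPKM), Tead1 (17.8 to 25.8), Wwtr1 (17.4 to 23.6) and Tead4 (6.71 to 8.42) were lower. The ranges of neighbours in this order overlapped for Axl, Amotl2 and Yap1 and for Tead1 and Wwtr1, and not for the others. FPKM divides each count by one gene length, so another choice of transcript would change the order between genes but not the comparisons between groups.

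**Figure D1:**
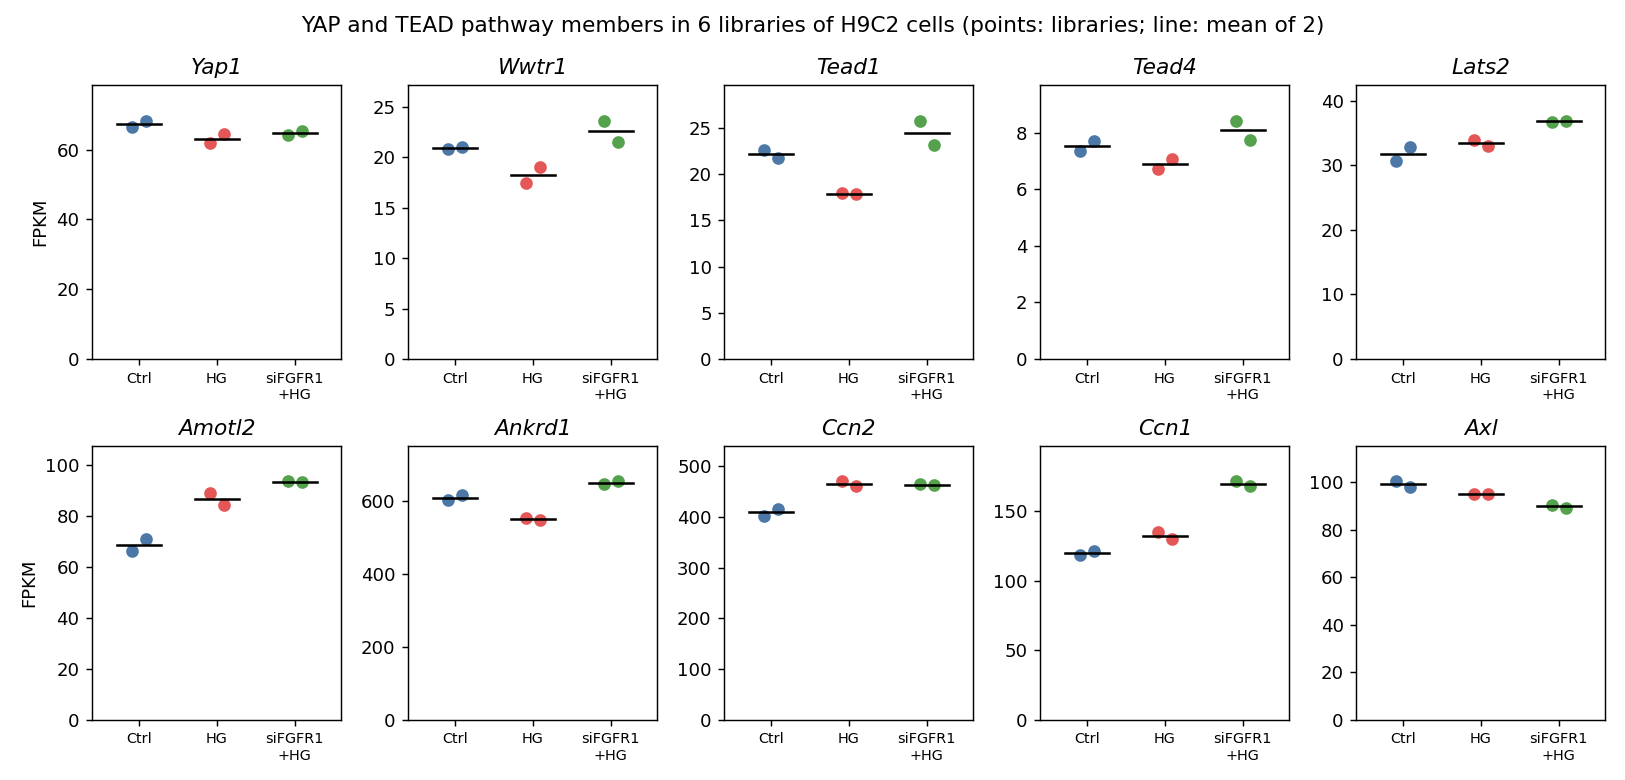
FPKM of the 10 members in each library, 1 panel per gene, for Ctrl, HG and siFGFR1+HG, with libraries as points and the mean of 2 as a line. Tead1 and Ankrd1 were lowest in HG, Amotl2 and Ccn2 were lowest in Ctrl, and Ccn1 was highest in siFGFR1+HG, at 172 and 168 FPKM.

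High glucose against untreated cells asks which of these genes differed after the glucose dose. Amotl2 and Ccn2 rose, Tead1 and Ankrd1 fell, and none of the 10 members moved by more than 1.26-fold. A call is an adjusted p under 0.05 in edgeR's quasi-likelihood test, with the Benjamini-Hochberg adjustment over all 12229 genes. The 4 called members (2 higher and 2 lower) stand beside 13.7% of all tested genes called, 5.81% higher and 7.85% lower. The median log2 fold change of the members was -0.10, against 0.00 for all tested genes. When a Ctrl or HG library was left out, 2 members were called.

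For siFGFR1+HG against HG, which asks how the high glucose profile differed after the siRNA, 6 members rose and 0 fell. These were Tead1, Ccn1, Wwtr1, Ankrd1, Tead4 and Lats2, with rises of 1.11-fold to 1.38-fold. At an unadjusted p under 0.05 edgeR gave 7 higher and 0 lower, and DESeq2 called 7 higher and 0 lower. Over all tested genes 29.9% were called, made up of 14.1% higher and 15.9% lower. The median of the 10 members was 0.20 on the log2 scale, against -0.01 for all tested genes. Without HG 1 or siFGFR1+HG 1, 3 members were called.

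For siFGFR1+HG against Ctrl, 5 members rose (Ccn1, Amotl2, Lats2, Ccn2 and Ankrd1) and Axl fell, beside 22.3% of all tested genes called, 9.82% higher and 12.4% lower. The median there was 0.12 against 0.01. Without Ctrl 1, siFGFR1+HG 1 or siFGFR1+HG 2, 3 members were called. The groups did not overlap in counts per 1e6 counts (CPM) for 9, 9 and 10 members in the 3 comparisons, beside 59.3%, 66.1% and 64% of all tested genes. The comparisons share libraries pairwise, so a gene that is low in HG enters the first with a minus sign and the second with a plus sign.

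**Figure D2:**
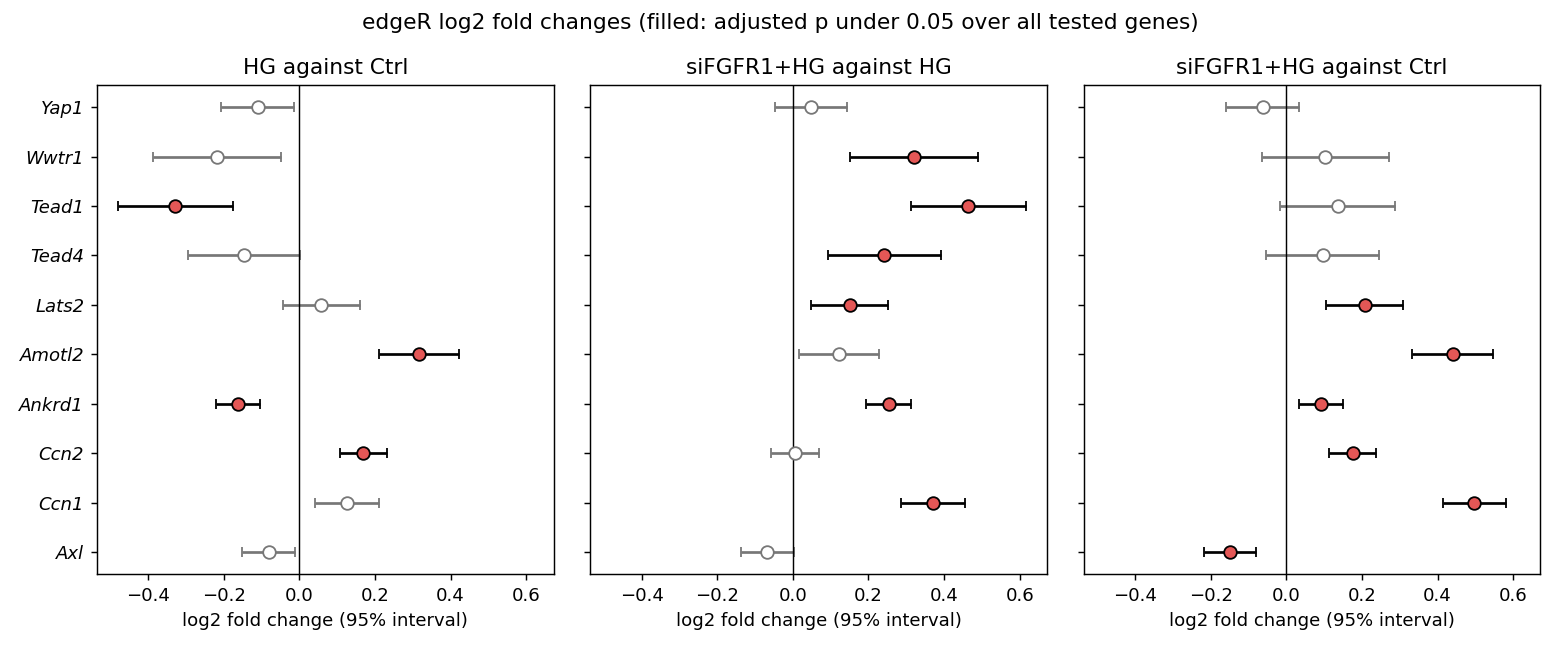
Log2 fold change of each member in the 3 comparisons, with edgeR estimates as points and 95% intervals as bars; filled points passed an adjusted p of 0.05. The largest value is that of Ccn1 in siFGFR1+HG against Ctrl, at 0.50.

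The coactivator gene Yap1 (chromosome 8, 6135493 to 6203579, minus strand in the coordinates of the deposited table, whose build is unsure) was at 66.4 and 68.3 FPKM in Ctrl, 61.9 and 64.5 FPKM in HG and 64.2 and 65.2 FPKM in siFGFR1+HG. Both HG libraries lay below both Ctrl libraries, and HG and siFGFR1+HG overlapped in FPKM. Yap1 was not called in any comparison, with log2 -0.11 (95% interval -0.21 to -0.01, adjusted p = 0.124 by edgeR) for HG against Ctrl and 0.05 (-0.05 to 0.14, adjusted p = 0.417) for siFGFR1+HG against HG.

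Its relative Wwtr1, which encodes TAZ (chromosome 2, 147577089 to 147693082, minus strand), was at 20.8 and 21.1 FPKM in Ctrl, 17.4 and 19.1 FPKM in HG and 23.6 and 21.5 FPKM in siFGFR1+HG. The order was HG, then Ctrl, then siFGFR1+HG, with no overlap between neighbours. Wwtr1 rose 1.25-fold in siFGFR1+HG against HG (log2 0.32 ± 0.07, SE, n = 2 per group, adjusted p = 0.0167 by edgeR), a call lost without HG 1 (adjusted p = 0.0837) or siFGFR1+HG 1 (0.0926). It was not called in HG against Ctrl (log2 -0.22, 95% interval -0.39 to -0.05). The FPKM ratio of Yap1 to Wwtr1 was 3.22 ± 0.0399 in Ctrl, 3.47 ± 0.120 in HG and 2.87 ± 0.222 in siFGFR1+HG (SD, n = 2). With 2 libraries a side an exact two-sided permutation test of such a ratio cannot go below p = 0.333, so these ratios are given without a call.

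Tead1 encodes the TEAD factor best known for muscle genes (chromosome 1, 177495782 to 177707061, plus strand). Its level was 22.6 and 21.7 FPKM in Ctrl, 17.9 and 17.8 FPKM in HG and 25.8 and 23.2 FPKM in siFGFR1+HG. Both HG libraries were the lowest, and no groups overlapped. Tead1 fell 1.26-fold in HG (log2 -0.33 ± 0.06, SE, adjusted p = 0.0225) and rose 1.38-fold in siFGFR1+HG against HG (0.46 ± 0.06, adjusted p = 0.00308). The fall in HG did not pass when a Ctrl or HG library was left out (adjusted p = 0.0694 to 0.119 by edgeR), while the rise held in each of the 17 alternatives tried. Against Ctrl, siFGFR1+HG was not called (log2 0.14, 95% interval -0.02 to 0.29).

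Tead4, a family member known for its part in skeletal myoblast differentiation (chromosome 4, 161540130 to 161587222, minus strand), was at 7.35 and 7.71 FPKM in Ctrl, 6.71 and 7.07 FPKM in HG and 8.42 and 7.73 FPKM in siFGFR1+HG. The groups did not overlap, and HG was again the lowest. It rose 1.18-fold in siFGFR1+HG against HG (log2 0.24 ± 0.06, SE, adjusted p = 0.0290). That call was lost without HG 1, HG 2 or siFGFR1+HG 1 (adjusted p = 0.0648 to 0.156 by edgeR), and with limma on log2(FPKM + 1) and log2(FPKM + 0.1) values. In HG against Ctrl its log2 was -0.15 (95% interval -0.30 to 0.00), not called.

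The other 2 TEAD genes, Tead2 and Tead3, had higher FPKM than Tead4. Such an order depends on length: the FPKM imply about 1890 bases for Tead1 and 5442 for Tead4. In CPM these 2 were near each other in Ctrl, at means of 42.2 and 41.3. Tead2 was at 31.9 and 34.7 FPKM in Ctrl, 40.4 and 38.1 FPKM in HG and 28.9 and 29.7 FPKM in siFGFR1+HG, so HG was its highest group. Tead2 fell in siFGFR1+HG against HG (log2 -0.41 ± 0.06, SE, adjusted p = 0.00354) and missed the threshold in HG against Ctrl (0.22 ± 0.06, adjusted p = 0.0538). Tead3 was at 18.5 to 22.9 FPKM and rose in siFGFR1+HG against Ctrl (log2 0.24 ± 0.04, adjusted p = 0.00850), a call lost without Ctrl 2 (0.0620) or siFGFR1+HG 1 (0.0563). Tead3 was not called in the other 2 comparisons. The summed FPKM of the 4 TEAD genes lay at 81.2 to 86.1, of which Tead1 made up 26.3 to 27.9% in Ctrl, 20.9 to 21.2% in HG and 28.1 to 30.0% in siFGFR1+HG. Tead2 made up 39.3 to 42.0%, 45.2 to 47.0% and 33.7 to 36.0% in the same order. The FPKM ratio of Tead2 to Tead1 was 1.41 and 1.60 in the Ctrl libraries, 2.13 and 2.25 in the HG libraries, and 1.12 and 1.28 in siFGFR1+HG, lowest value first in each.

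**Figure D3:**
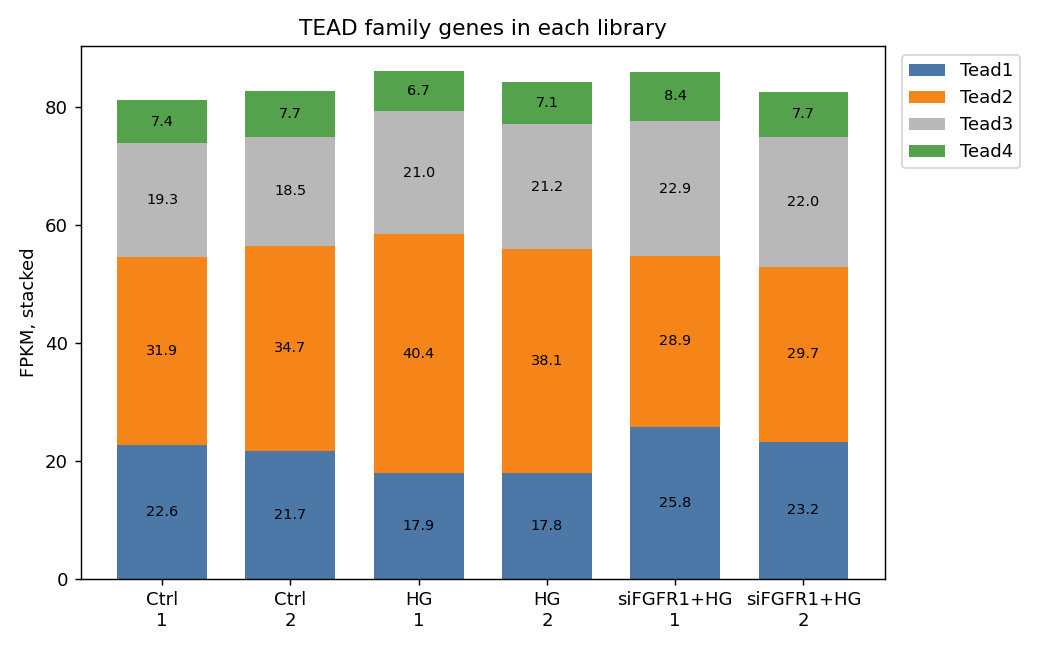
Stacked FPKM of Tead1 to Tead4 in each of the 6 libraries. The 4 genes summed to 81.2 to 86.1 FPKM. Across the groups, Tead1 was lowest and Tead2 highest in both HG libraries. The share of each gene in a bar depends on the gene lengths used for FPKM.

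Of the genes that restrain YAP, Lats2 encodes the kinase that phosphorylates it (chromosome 15, 37943609 to 37983882, minus strand). Lats2 was at 30.7 and 32.8 FPKM in Ctrl, 33.9 and 33.0 FPKM in HG and 36.7 and 36.9 FPKM in siFGFR1+HG. Both siFGFR1+HG libraries were the highest, and Ctrl and HG overlapped in CPM but not in FPKM. Lats2 rose 1.11-fold in siFGFR1+HG against HG (log2 0.15 ± 0.04, SE, adjusted p = 0.0396) and 1.16-fold against Ctrl (0.21 ± 0.04, adjusted p = 0.0168). The first call did not pass when an HG or siFGFR1+HG library was left out (adjusted p = 0.0712 to 0.160 by edgeR), and the second did not pass without Ctrl 1, siFGFR1+HG 1 or siFGFR1+HG 2 (0.0755 to 0.102). With the replicate number as a block the first was also lost (adjusted p = 0.0675), as it was with library size alone as the scale and with limma on log2(FPKM + 1) values. HG against Ctrl gave log2 0.06 (95% interval -0.04 to 0.16).

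Amotl2, a member of the angiomotin family that tethers YAP at cell junctions (chromosome 8, 111209908 to 111226226, plus strand), was at 66.4 and 71.2 FPKM in Ctrl, 89.1 and 84.6 FPKM in HG and 93.7 and 93.6 FPKM in siFGFR1+HG. Ctrl lay below all 4 libraries that received glucose. It rose 1.25-fold in HG against Ctrl (log2 0.32 ± 0.04, SE, adjusted p = 0.00854) and 1.36-fold in siFGFR1+HG against Ctrl (0.44 ± 0.04, adjusted p = 0.00133). Both calls held in each of the 17 alternatives tried. In siFGFR1+HG against HG it was not called (log2 0.12, 95% interval 0.02 to 0.23, adjusted p = 0.0825). The groups did not overlap in CPM there, as was the case for 66.1% of all tested genes.

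Ankrd1 (chromosome 1, 254726969 to 254735548, minus strand) was at 600.2 and 614 FPKM in Ctrl, 553 and 546 FPKM in HG and 646 and 652 FPKM in siFGFR1+HG. Its order of levels was HG, Ctrl, siFGFR1+HG, and no neighbours overlapped. Ankrd1 fell 1.12-fold in HG (log2 -0.16 ± 0.02, SE, adjusted p = 0.0110), rose 1.19-fold in siFGFR1+HG against HG (0.25 ± 0.02, adjusted p = 0.000978), and rose 1.07-fold in siFGFR1+HG against Ctrl (0.09 ± 0.02, adjusted p = 0.0415). The fall in HG was lost without Ctrl 2 (adjusted p = 0.0637) or HG 2 (0.0603), and the rise against HG held in each of the 17 alternatives. The rise against Ctrl held in only 5 of the 17 alternatives. It was lost whichever of the 6 libraries was left out (log2 0.07 to 0.11) and with a replicate block (adjusted p = 0.0552 by edgeR). It was also lost with the 2 other filters, with 2-group fits and with both limma fits. The summed mesenchymal markers had the same order of groups as Ankrd1 and Tead1. All 3 were lower in HG against Ctrl (Col1a1 log2 -0.11, Vim -0.28, Pdgfrb -0.31, adjusted p from 0.00515 to 0.0443 by edgeR). All 3 were higher in siFGFR1+HG against HG (0.40, 0.11 and 0.29, adjusted p from 0.000330 to 0.0477). Only Col1a1 (3107 to 4127 FPKM over the libraries) was higher in siFGFR1+HG against Ctrl (log2 0.29, adjusted p = 0.000994 by edgeR). In siFGFR1+HG against Ctrl, Vim was lower (log2 -0.17, adjusted p = 0.0125 by edgeR) and Pdgfrb was not called (-0.02). The part of these markers in the results was not tested.

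The related genes of the muscle ankyrin repeat family, Ankrd2 and Ankrd23, reached at most 0.402 and 0.515 FPKM and were under the level tested, as was Mypn, which encodes a sarcomeric partner (at most 0.166 FPKM). By Pearson's r of log2 CPM over the 6 libraries, the genes most like Ankrd1 among 9637 compared were Dip2a, Afap1, Senp7, Fndc3b and Ppm1e, with r from 0.996 to 0.9998. These r describe 6 libraries in 3 groups and carry no test. Afap1, which encodes an actin-binding adaptor, was at 28.3 and 29.0 FPKM in Ctrl, 24.3 and 23.8 FPKM in HG and 31.6 and 32.1 FPKM in siFGFR1+HG. Its order of groups is that of Ankrd1, which follows from its choice by r over these same libraries. Of the members, Tead1 (r = 0.944), Wwtr1 (0.896) and Tead4 (0.893) were the most like Ankrd1, while Ccn2 (-0.101) and Axl (-0.312) were the least.

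Ccn2 and Ccn1 encode secreted matricellular proteins of the CCN family and are classic YAP targets. Ccn2 (chromosome 1, 21851660 to 21854773, minus strand) was at 401 and 416 FPKM in Ctrl, 470.0 and 461 FPKM in HG and 464 and 463 FPKM in siFGFR1+HG. Both groups with glucose lay above Ctrl and overlapped with each other. Ccn2 rose 1.12-fold in HG against Ctrl (log2 0.17 ± 0.03, SE, adjusted p = 0.0117) and 1.13-fold in siFGFR1+HG against Ctrl (0.18 ± 0.03, adjusted p = 0.00553). The first call was lost without Ctrl 1 (adjusted p = 0.0651) or HG 1 (0.0554). Between siFGFR1+HG and HG its log2 was 0.01, with a 95% interval of -0.06 to 0.07 (adjusted p = 0.887 by edgeR).

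Ccn1 (chromosome 2, 251529354 to 251532312, minus strand) was at 119 and 121 FPKM in Ctrl, 135 and 129.8 FPKM in HG and 172 and 168 FPKM in siFGFR1+HG. The order was Ctrl, HG, siFGFR1+HG, with no overlap. It rose 1.29-fold in siFGFR1+HG against HG (log2 0.37 ± 0.03, SE, adjusted p = 0.000896) and 1.41-fold against Ctrl (0.50 ± 0.03, adjusted p = 0.000389), and both calls held in each of the 17 alternatives. In HG against Ctrl it missed the threshold (log2 0.13 ± 0.03, adjusted p = 0.0613), which it passed with library size alone as the scale and with DESeq2. The FPKM ratio of Ccn2 to Ccn1 was 3.41 ± 0.0389 in Ctrl, 3.51 ± 0.0563 in HG and 2.73 ± 0.0313 in siFGFR1+HG (SD, n = 2). The ratio of Ankrd1 to Ccn2 was 1.49 ± 0.0151, 1.18 ± 0.00444 and 1.401 ± 0.0127. Among these 3 most abundant members, Ankrd1 was lowest in HG, while Ccn2 and Ccn1 were lowest in Ctrl.

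Among the other CCN genes, Ccn5 rose in siFGFR1+HG against HG (log2 0.56 ± 0.06, SE, adjusted p = 0.00113), from 38.0 and 41.6 FPKM to 59.9 and 56.1. Ccn4 fell in HG against Ctrl (-0.33 ± 0.05, adjusted p = 0.00886), from 63.3 and 65.9 FPKM to 53.7 and 50.2, a call lost without Ctrl 2 (adjusted p = 0.0552 by edgeR).

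Axl encodes a receptor tyrosine kinase of the TAM family (chromosome 1, 82549420 to 82580761, minus strand). Its level was 100.4 and 98.3 FPKM in Ctrl, 95.2 and 94.98 FPKM in HG and 90.5 and 89.3 FPKM in siFGFR1+HG, an order opposite to that of Ccn1 and without overlap. Axl fell 1.11-fold in siFGFR1+HG against Ctrl (log2 -0.15 ± 0.03, SE, adjusted p = 0.0140), which was lost without Ctrl 1, siFGFR1+HG 1 or siFGFR1+HG 2 (adjusted p = 0.0562 to 0.0779 by edgeR). The steps from Ctrl to HG (log2 -0.08, 95% interval -0.15 to -0.01) and from HG to siFGFR1+HG (-0.07, -0.14 to 0.00) were not called. The summed epithelial markers had the same order of groups, with Epcam at 0 and Cdh1 at 4 counts or fewer in every library, and their part in this result was not tested.

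The TAM receptor ligands Gas6 and Pros1 rose in siFGFR1+HG against HG. Gas6 went from 115 and 109 FPKM to 143 and 136 (log2 0.33 ± 0.04, SE, adjusted p = 0.00237), and Pros1, which encodes protein S, from 23.6 and 23.7 to 29.6 and 28.6 (0.31 ± 0.04, adjusted p = 0.00269). In HG against Ctrl 0 of 4 tested genes of this family were called by edgeR, 1 (Axl) had an unadjusted p under 0.05, and DESeq2 called 1 (Axl, adjusted p = 0.0243). Among all tested genes edgeR called 13.7% in that comparison.

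The wider Hippo pathway was read through lists of genes named for their roles. Of all tested genes, 5.81% were called higher and 7.85% lower in HG against Ctrl. In siFGFR1+HG against HG these shares were 14.1% and 15.9%. Of 27 tested Hippo kinases and scaffolds, 7 fell and 1 rose in HG against Ctrl (median log2 -0.10, against 0.00 for all tested genes). In siFGFR1+HG against HG 9 rose and 1 fell (median 0.15 against -0.01). This list holds the members Lats2 and Amotl2. Of the 25 tested genes that are not members, 7 fell and 0 rose in HG against Ctrl (median -0.11). In siFGFR1+HG against HG 8 of them rose and 1 fell (median 0.15). Fat1, an atypical cadherin, was at 68.7 and 65.6 FPKM in Ctrl, 53.5 and 52.6 FPKM in HG and 70.1 and 70.5 FPKM in siFGFR1+HG. It fell in HG (log2 -0.36 ± 0.03, SE, adjusted p = 0.00225) and rose in siFGFR1+HG against HG (0.42 ± 0.03, adjusted p = 0.000430). Its relative Fat4 was far less abundant, at 1.51 to 1.57 FPKM in Ctrl, 1.05 to 1.06 in HG and 1.76 to 1.93 in siFGFR1+HG. The fall of Fat4 in HG (log2 -0.57 ± 0.08, adjusted p = 0.00849) was lost without Ctrl 1 (0.0566), and its rise against HG was 0.82 ± 0.08 (adjusted p = 0.000928).

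Ptpn14, a phosphatase that binds YAP and is also counted among its targets, was at 31.0 and 33.1 FPKM in Ctrl, 23.4 and 22.6 FPKM in HG and 32.8 and 33.7 FPKM in siFGFR1+HG. Its fall in HG (log2 -0.50 ± 0.05, SE, adjusted p = 0.00278) and its rise against HG (0.55 ± 0.05, adjusted p = 0.000679) held in each of the 17 alternatives. Leaving out 1 library left as few as 2 fallen genes of the Hippo list in HG (2 without Ctrl 1, 3 without Ctrl 2, 4 without HG 2), and 2 risen ones without Ctrl 1. In siFGFR1+HG against HG 5 rose without either siFGFR1+HG library.

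Of 11 tested genes whose products inhibit the Hippo kinases, 2 fell in HG and 4 rose in siFGFR1+HG against HG (medians 0.00 and 0.07). Among all tested genes 7.85% fell in the first comparison and 14.1% rose in the second (medians 0.00 and -0.01). The scaffold gene Dlg5 rose in siFGFR1+HG against HG (log2 0.47 ± 0.07, SE, adjusted p = 0.00326), and Strn, a subunit of the complex that dephosphorylates MST kinases, fell in HG (-0.33 ± 0.04, adjusted p = 0.00668). The fall of Dlg5 in HG (-0.36) did not pass when a Ctrl or HG library was left out (adjusted p = 0.0572 to 0.0929 by edgeR), which left 1 fallen gene. The count of 4 risen genes dropped to 1 without HG 2 or either siFGFR1+HG library and to 2 without either Ctrl library.

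Of 8 tested coactivator, TEAD and cofactor genes, 1 rose and 1 fell in HG against Ctrl, and 4 rose and 2 fell in siFGFR1+HG against HG (median log2 0.17). Among all tested genes 5.81% rose and 7.85% fell in the first comparison, and 14.1% rose and 15.9% fell in the second. Of the 4 that are not members, 1 rose and 2 fell in siFGFR1+HG against HG (median -0.14). The cofactor gene Vgll3, whose product binds TEAD in place of YAP, was at 55.0 and 57.4 FPKM in Ctrl, 69.9 and 68.0 FPKM in HG and 52.2 and 53.0 FPKM in siFGFR1+HG. It rose in HG (log2 0.28 ± 0.04, SE, adjusted p = 0.0121), a call lost without Ctrl 1 (0.0688) or HG 1 (0.0530), and fell in siFGFR1+HG against HG (-0.38 ± 0.04, adjusted p = 0.00172). There 1 rise of the list was left without siFGFR1+HG 1 and 2 without HG 1 or HG 2.

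A list of 22 YAP and TAZ target genes, 6 of them members here, had 19 tested. In HG against Ctrl 4 rose and 5 fell (median log2 -0.06), and in siFGFR1+HG against HG 9 rose and 1 fell (median 0.15 against -0.01 for all tested genes). Against Ctrl, siFGFR1+HG libraries had 11 targets that rose and 5 that fell (median 0.16 against 0.01). Among all tested genes 5.81%, 14.1% and 9.82% rose in these 3 comparisons, in that order, and 7.85%, 15.9% and 12.4% fell. Of the 13 tested targets that are not members, 2 rose and 4 fell in HG against Ctrl (median -0.15). In siFGFR1+HG against HG 6 rose and 1 fell (median 0.21). In siFGFR1+HG against Ctrl 6 rose and 4 fell (median 0.13). Of these 13 targets, Tgfb2, which encodes a TGF-beta ligand, rose in HG (0.30 ± 0.03, SE, adjusted p = 0.00430), from 39.5 and 39.4 FPKM to 49.0 and 49.3. Myof, which encodes the membrane repair protein myoferlin, fell in HG (-0.20 ± 0.02, adjusted p = 0.00605). Crim1, which encodes a transmembrane protein that binds growth factors, rose in siFGFR1+HG against HG (0.44 ± 0.04, adjusted p = 0.000679), from 65.7 and 63.5 FPKM to 85.5 and 87.6. Its fall in HG against Ctrl (-0.16) was lost whichever of the 6 libraries was left out (adjusted p = 0.0636 to 0.175 by edgeR). Fallen targets in HG numbered 2 without Ctrl 2 and 3 without HG 2, and risen ones in siFGFR1+HG against HG numbered 5 without HG 1. Against Ctrl, siFGFR1+HG had 6 rises without Ctrl 1 or siFGFR1+HG 1 and 7 without Ctrl 2 or siFGFR1+HG 2, with 1 or 2 falls.

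**Figure D4:**
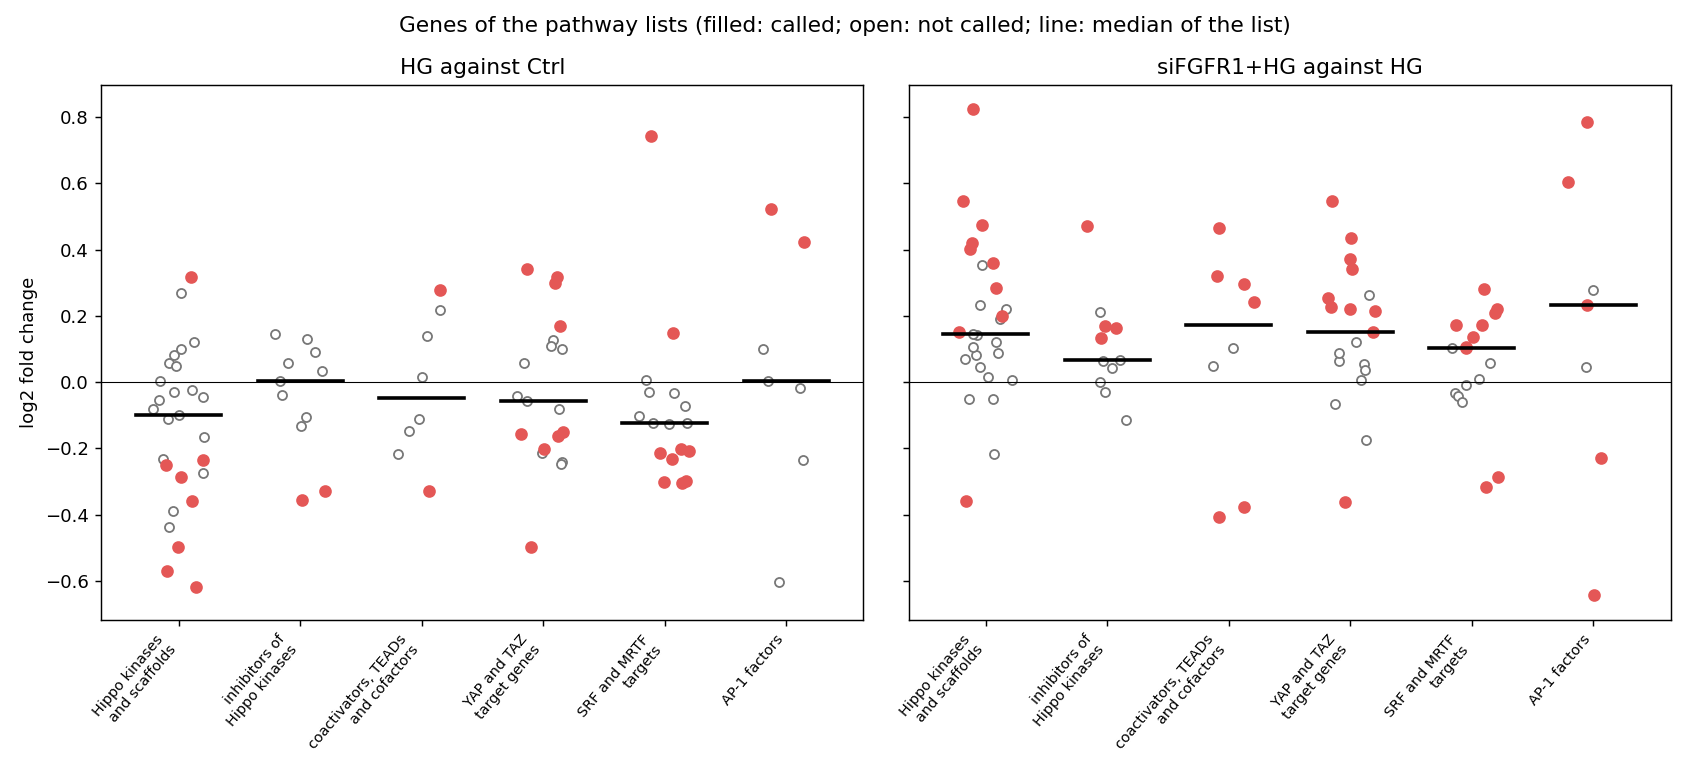
Log2 fold changes of the tested genes of the pathway lists in the comparisons named in the panel titles; filled points passed an adjusted p of 0.05 and lines are list medians. In the YAP and TAZ target list 4 genes rose and 5 fell in HG against Ctrl, and 9 rose and 1 fell in siFGFR1+HG against HG. Among all tested genes 5.81% rose and 7.85% fell in the first, and 14.1% rose and 15.9% fell in the second. A gene can stand in more than 1 list.

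Serum response factor and its MRTF coactivators share several targets with YAP. Of 17 tested genes of that list, 7 fell and 2 rose in HG against Ctrl (median log2 -0.12), and 8 rose and 2 fell in siFGFR1+HG against HG (median 0.10). Among all tested genes 7.85% fell and 5.81% rose in the first comparison, and 14.1% rose and 15.9% fell in the second. Against Ctrl, siFGFR1+HG had 3 genes of this list that rose and 7 that fell (median -0.08 against 0.01 for all tested genes). Among all tested genes 9.82% rose and 12.4% fell there. The cytoskeletal genes Flna (filamin A, log2 -0.30 ± 0.02, SE), Myh9 (a non-muscle myosin, -0.30 ± 0.02) and Actb (beta-actin, -0.21 ± 0.02) fell in HG, with adjusted p from 0.00119 to 0.00319 by edgeR. Flna rose in siFGFR1+HG against HG (0.21 ± 0.02), as did the coactivator gene Mrtfa (0.28 ± 0.04), while Zyx, which encodes the adhesion protein zyxin, fell (-0.29 ± 0.03). Actb was not called there (log2 0.01). Fhl2, chosen after its values were seen, rose in HG (log2 0.74 ± 0.08, adjusted p = 0.00397), from a mean of 30.9 to 52.4 FPKM, and the rise held in each of the 17 alternatives. Its fall in siFGFR1+HG against HG (-0.32 ± 0.08, adjusted p = 0.0253) was lost without HG 1, siFGFR1+HG 1 or siFGFR1+HG 2 (adjusted p = 0.0753 to 0.110 by edgeR). Without Ctrl 2, 4 genes fell in HG, and 1 rose whichever Ctrl or HG library was left out. Against HG, in siFGFR1+HG 4 rose without siFGFR1+HG 2 and 5 without HG 1, HG 2 or siFGFR1+HG 1.

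AP-1 factors bind many enhancers together with TEAD. Of 7 tested, Junb (log2 0.52 ± 0.06, SE, adjusted p = 0.00397) and Jund (0.42 ± 0.05, adjusted p = 0.00412) rose in HG and the other 5 were not called. These calls held in each of the 17 alternatives. In siFGFR1+HG against HG 3 rose and 2 fell, among them Fosl1 (-0.64 ± 0.10, adjusted p = 0.00581). Among all tested genes 5.81% rose and 7.85% fell in HG against Ctrl, and 14.1% rose and 15.9% fell in siFGFR1+HG against HG. The count of risen AP-1 genes there was 0 without siFGFR1+HG 1, 1 without HG 1 and 2 without each of the other libraries, and that of fallen ones was 1 without HG 1 or siFGFR1+HG 2.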

How the data were processed

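RNA from 6 H9C2 libraries was sequenced. The deposited table gives whole-number counts per gene and library, not scaled between libraries, and FPKM values, which the authors scaled to gene length and library size. Per the submitters' processing notes, fastp, HISAT2 and StringTie were used. The notes name build GRCh38, while all 32623 identifiers are rat Ensembl identifiers, so the build is unsure. Whether counting used strand is not given in the sources used here.

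The 12229 genes with 1 FPKM or more in 2 or more libraries were fitted in edgeR 4.0.16 (R 4.3.3) with TMM scaling, 1 mean per group and 3 residual degrees of freedom. Standard errors were worked back from the F statistic, and for HG against Ctrl their median over genes was 0.0869 (log2). The fit was tested on simulated data for HG against Ctrl with 12229 genes. Of 50 genes changed at each size it called 1 at 1.2-fold, 24 at 1.5-fold, 39 at 2-fold and 49 at 4-fold. Of its 128 calls 15 were false, a larger share than the threshold on adjusted p aims at. The measured data gave 1670 calls in that comparison, so the adjusted threshold was stricter in the simulation. Its recovery at each size therefore cannot be carried over to the measured genes. Sizes under 1.2-fold, where several members were called, were not simulated. Alternatives were RLE, upper-quartile or library-size scaling, DESeq2 1.42.0, limma 3.58.1 on log2(FPKM + 1) and log2(FPKM + 0.1), 2 other filters, 2-group fits, a replicate block, counts divided by 4, and leaving out each library. Libraries of a group differed by more than counting noise (a chi-square on quartered counts had a median of 0.696 to 0.806 over genes, against 0.455 by chance). Quartering lowers this chi-square, so the excess over counting noise is larger on the counts as deposited.

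Members and lists were chosen with earlier results of these data known. From each list the 3 genes with the smallest p in HG against Ctrl and in siFGFR1+HG against HG could be named, and for Ankrd1 the 5 genes of highest r whose standard deviation was at least 0.5 times its own. List genes without a matching name were not analysed here. The genes of 1 further list are not reported here.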

Additional observations from a re-analysis of the deposited data

How the results depend on the processing

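No member reversed a called direction in any of the 17 alternatives per comparison. Only the members called in a comparison (4, 6 and 6, in the order used above) could lose a call, and the others could only gain one. The lost calls below therefore belong to a part of the values counted. Of 510 member values, 463 kept their side of the threshold, 41 lost a call and 6 gained one. For the other genes that the naming rule picked the counts were 1721, 152 and 14 of 1887. Members called in HG against Ctrl (4) numbered 2 to 4 with 1 library left out. In siFGFR1+HG against HG (6) they numbered 3 to 6, and in siFGFR1+HG against Ctrl (6) 3 to 5. Over all genes the 1670 calls in HG against Ctrl numbered 456 to 1302 with 1 library left out (456 without Ctrl 1, 524 without Ctrl 2, 880 without HG 1, 729 without HG 2). The 3661 in siFGFR1+HG against HG numbered 2293 to 3247, and the 2723 in siFGFR1+HG against Ctrl 1379 to 2586. DESeq2 called 2628 genes in HG against Ctrl, and limma on log2(FPKM + 1) turned the share of calls that were higher there from 42.5 to 57.6%. The cause of these moves was not tested, beyond the smaller number of libraries.

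Nothing in the labels says that same-numbered libraries were paired. Their deviations correlated at 0.0614, 0.0489 and -0.0873 between groups. These values cannot settle pairing, since an effect on few genes would hardly move a correlation over all of them. With a replicate block 1153, 3253 and 2323 genes were called in HG against Ctrl, siFGFR1+HG against HG and siFGFR1+HG against Ctrl, and 4, 5 and 5 members. Depth was not limiting for the members, whose counts were 1708 or more in every library. Their changes of 1.41-fold or less stand against 2 libraries a group.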
